A study of Sus scrofa with 8 samples.

Results

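The cardiac myosin chains and their closest partners were followed in the right ventricular free wall of pigs. The 10 names were the heavy chains MYH6, MYH7 and MYH7B, the light chains MYL2, MYL3, MYL4, MYL7 and MYL9, the light chain kinase MYLK3 and the myosin-binding protein MYBPC3. They were looked up by gene name, or else by the name of the human orthologue, in the authors' deposited table, and then by gene identifier in the count table. This gave 9 of the 10 names a gene model, and since MYH6 and MYH7 fell on the same model there were 8 member models among 31908 in all. All 8 had enough counts to be tested.

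The banded group held 4 Yorkshire Cross pigs, castrated males operated on as piglets at 4.5 ± 0.6 weeks of age and 6.4 ± 1.3 kg. An umbilical tape was tightened around the main pulmonary artery through a left thoracotomy until the right ventricular systolic peak reached about 30 to 40 mmHg. The control group held 4 Yorkshire Cross pigs of like age and weight, housed for 8 weeks, with the treatment given as none. The labels do not give the sex of the controls, a sham operation or the time between banding and tissue collection. Each library came from a separate animal and from bulk frozen tissue, and library numbers of the groups lie in separate blocks, so banding, sex, surgery and any batch cannot be told apart.

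Myosin is the motor of the thick filament. Each heavy chain carries an essential and a regulatory light chain at its neck, and phosphorylation of the regulatory chain alters how heads approach the thin filament. In the mammalian heart, MYH7 (beta) and MYH6 (alpha) are the main heavy chains, MYL2 and MYL3 are the regulatory and essential chains of the ventricle, and MYL7 and MYL4 are those of the atrium. MYLK3 is the cardiac kinase of the regulatory chain, and MYBPC3 binds the thick filament and holds back myosin heads. A shift between MYH6 and MYH7 and re-expression of fetal chains are known responses of rodent ventricles to pressure load.

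Libraries held 31400659 to 34169120 counts in banded pigs and 31033679 to 34183338 counts in control pigs. Mitochondrial-genome transcripts made up 36.3% ± 4.17 of all counts in banded pigs and 38.3% ± 3.90 in control pigs (SD, n = 4 each). The 8 member models took 3.91% to 4.73% of the counts in banded pigs and 3.28% to 4.31% in control pigs. The tissue label was checked against marker genes. TNNT2, the cardiac troponin T, averaged 9748 ± 450 CPM in banded pigs and 8140 ± 1138 CPM in control pigs (CPM, the counts of a gene scaled to library totals that were adjusted by TMM). TNNI3, the adult cardiac troponin I and also a ventricular marker, was low in this annotation, at 6.45 ± 3.74 CPM in banded pigs and 15.3 ± 3.64 CPM in control pigs. The 11 ventricular markers found, of 13 listed, summed to 31490 to 43140 CPM in banded pigs and 27500 to 37125 CPM in control pigs. BMP10, from the list of atrial markers, had 0 counts in all 8 libraries. Other genes of that list were present, such as PAM, which averaged 497 CPM in banded pigs and 299 CPM in control pigs. The 0 of BMP10 therefore does not settle the tissue label. TNNT2, TNNI3 and BMP10 were chosen for mention after their values were seen. So were MYH9, MYH10, MYH11 as a smooth muscle marker, MYLK, ACTA2, CNN1, NPPA, KCNJ8 and MCAM.

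Several gene models cover more than the gene they are named for, which bears on every value given here. On build Sscrofa11.1 the MYH6/MYH7 model lay on chromosome 7 from 75650445 to 75709232, plus strand, with 76 merged exons and 19881 exonic bases. RefSeq places 38.9% of those bases in MYH7, 33.5% in the neighbouring protein-coding locus LOC100736765 and 10.6% in CMTM5. The heavy chain value is therefore a sum, and a shift between heavy chains could not be measured. The MYH7B model lay on chromosome 17 from 38360585 to 38389321, plus strand, with 60.8% of its 12983 bases in MYH7B and 28.3% in the span of TRPC4AP, whose own model lies on the other strand. Reads were counted by strand.

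The light chain models differed in how cleanly they match the gene. MYL2 lay on chromosome 14 from 32196883 to 32213760, minus strand, with 9 merged exons and 742 bases. Of these, 96.5% fell in MYL2, and all lay inside the long span of CCDC63. MYL3 lay on chromosome 13 from 29699304 to 29735586, minus strand, but 28.4% of its 2618 bases fell in MYL3 and 71.6% in the RNA locus LOC100516643. MYL4 lay on chromosome 12 from 16775471 to 16792213, minus strand, and MYL9 on chromosome 17 from 39788199 to 39795296, plus strand, within the span of the long non-coding RNA LOC110257438. MYLK3 lay on chromosome 6 from 37850754 to 37920768 and MYBPC3 on chromosome 2 from 15247539 to 15270104, both on the plus strand.

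MYL7 had no model under its own name, and no value for it is reported here.

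The comparison asked which of these genes differed in the banded right ventricle. MYL2 and MYL9 rose and MYH7B fell in banded pigs, so that 3 of the 8 member models passed an adjusted p of 0.05 in edgeR's quasi-likelihood test with Benjamini-Hochberg adjustment over 13697 genes. Over all genes tested 6.97% passed, with 3.47% higher and 3.5% lower in banded pigs. DESeq2 and limma-voom called 4 of the 8, the same 3 and MYLK3, where they called 10.3% and 9.79% of all genes they tested. So did edgeR with scaling by library size alone, where 5.92% of all genes passed. Banded and control values did not overlap for 4 of the 8 models (MYL2, MYL9, MYH7B and MYBPC3), against 15.9% of all genes tested. The median log2 fold change was -0.025 over the 8 models and 0.015 over all genes tested. The combined heavy chain model, MYL3, MYL4, MYLK3 and MYBPC3 did not pass.

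**Figure D1:**
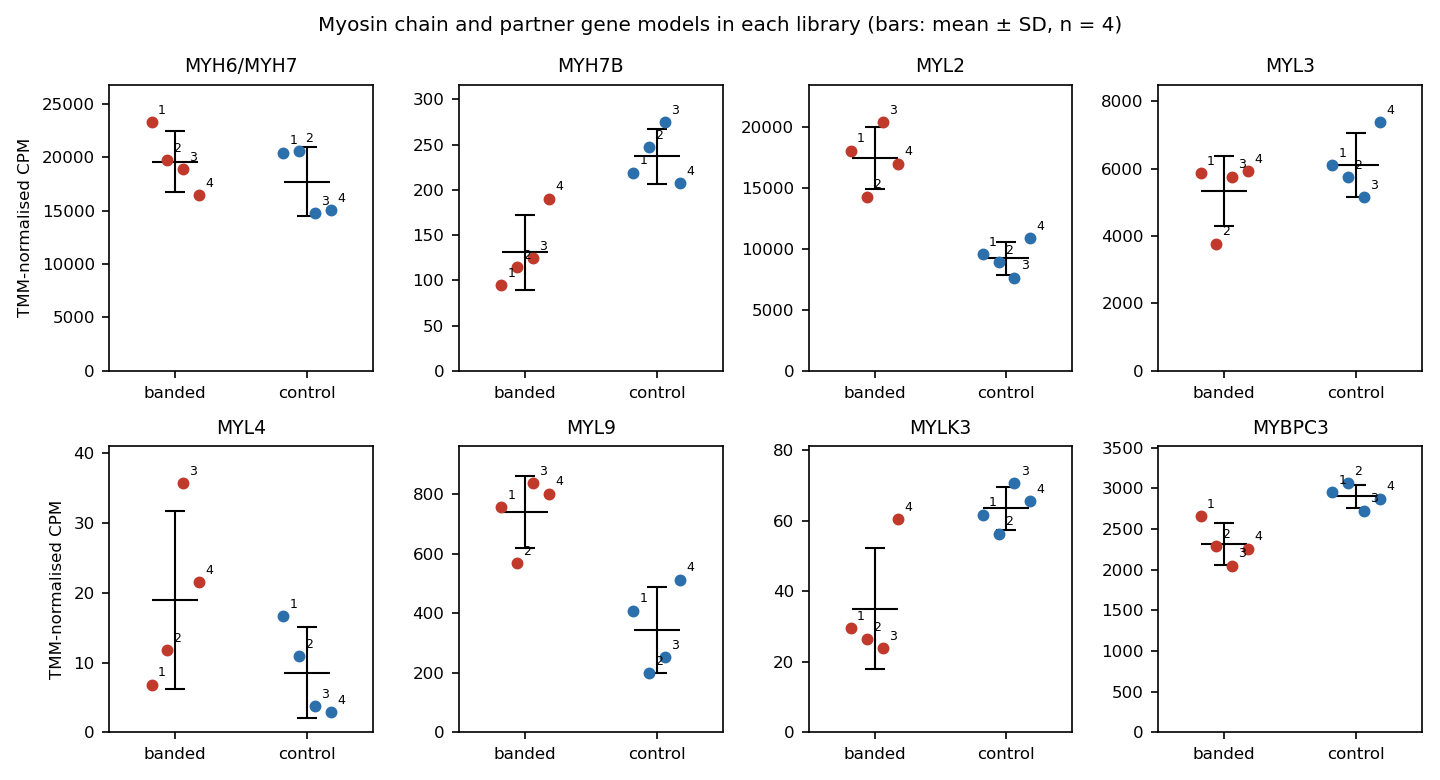
TMM-normalised CPM of the 8 member models, with 1 panel per model, points for the 4 banded (left) and 4 control (right) libraries numbered by replicate, and bars for the mean ± SD. The banded points of MYL2 lie between 14317 and 20446 CPM, all above the control points, and those of MYH7B lie between 95.0 and 190 CPM, all below the control points.

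Of the heavy chains, the MYH6/MYH7 model had 23310, 19734, 18892 and 16419 CPM in banded pigs 1 to 4, against 20436, 20605, 14795 and 15062 CPM in control pigs 1 to 4. The groups overlapped, and controls 1 and 2 lay above 3 of the 4 banded animals. By the fit the log2 difference was 0.14, with an SE of 0.18 and an edgeR adjusted p of 0.679. This difference was smaller than the spread within each group (SD 2852 CPM in banded pigs and 3231 CPM in control pigs).

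MYH7B encodes a slow heavy chain of the same family, and its gene hosts miR-499 in an intron. In mouse heart much of its transcript is spliced into a form that makes no full-length myosin. MYH7B had 95.0, 114, 125 and 190 CPM in banded pigs, against 219, 247, 275 and 208 CPM in control pigs. Every banded library was lower than every control, and banded 4 came nearest to them. The group means were 131 ± 41.4 CPM in banded pigs and 237 ± 30.3 CPM in control pigs (SD, n = 4 each), a 1.81-fold lower level by the fit. The log2 fold change was -0.86 ± 0.20, with an edgeR adjusted p of 0.0294. The call was lost without banded 1 (adjusted p = 0.0630), banded 2 (0.0684), banded 3 (0.0513), control 1 (0.0678), control 2 (0.0849) or control 3 (0.0950), each in edgeR's test. Without control 4 the call held (0.0406), and without banded 4 it held at -1.09 on the log2 scale (0.00426).

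The microRNA models within these loci held few counts, and the libraries were not a measure of small RNA. The MIR499 model, inside MYH7B at 38374118 to 38374197 of chromosome 17, had 0 counts in all 8 libraries. The MIR208B model, inside MYH7 on chromosome 7, had 7, 0, 5 and 2 counts in banded pigs and 0, 3, 8 and 4 counts in control pigs.

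Of the ventricular light chains, MYL2 and MYL3 behaved differently. MYL2 had 18093, 14317, 20446 and 17003 CPM in banded pigs, against 9606, 8907, 7651 and 10891 CPM in control pigs. The lowest banded library stood above the highest control. The means were 17465 ± 2543 CPM in banded pigs and 9264 ± 1353 CPM in control pigs (SD, n = 4 each), a 1.89-fold higher level by the fit. The log2 fold change was 0.91 ± 0.17, with an edgeR adjusted p of 0.0113. With each library left out in turn the log2 fold change stayed between 0.83 and 1.00 and the edgeR adjusted p between 0.0103 and 0.0462.

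MYL3, the essential light chain of the ventricle and of slow skeletal muscle, had 5857, 3776, 5759 and 5918 CPM in banded pigs. Control pigs had 6102, 5748, 5153 and 7384 CPM. The groups overlapped, and banded 2 lay well below the other banded animals. On the log2 scale the fold change was -0.19 ± 0.19, with an edgeR adjusted p of 0.575. Most bases of this model lie outside MYL3, and reads of LOC100516643 counted here cannot be separated from it.

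Set side by side within each library, there were 3.09, 3.79, 3.55 and 2.87 MYL2 counts per MYL3 count in banded pigs, against 1.57, 1.55, 1.48 and 1.47 in control pigs. The 4 controls lay close together and every banded library lay above them. This ratio was chosen after the values were seen and is given without a test. It changes with neither library total nor scaling, but it carries the mixed content of the MYL3 model.

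MYL4, the essential chain of the atrium and of the fetal ventricle, had 6.82, 11.8, 35.6 and 21.5 CPM in banded pigs, against 16.6, 10.9, 3.79 and 2.94 CPM in control pigs. Banded 3 and 4 stood above all controls, while banded 1 lay below controls 1 and 2. The log2 fold change was 1.14 ± 0.70, with an edgeR adjusted p of 0.375, so a difference of this size was not resolved from the spread with 4 animals a group. It was 0.64 without banded 3, 1.68 without control 1 and 0.73 in limma-voom, and no alternative called it.

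Markers of atrial muscle were followed beside MYL4. The 15 found, of 16 listed, summed to 720 to 1667 CPM in banded pigs and 495 to 632 CPM in control pigs, without overlap. PAM and NPPA made up most of each sum, so the sum does not stand for the list as a set. Of 12 tested, 1 was called higher (PAM) and 2 lower (KCNJ5 and NR2F1), with a median log2 fold change of -0.068. These calls were 25% of those tested, against 6.97% of all genes tested. KCNJ5 averaged 9.47 ± 10.0 CPM in banded pigs and 75.3 ± 9.85 CPM in control pigs. PAM had 448 to 581 CPM in banded pigs and 279 to 333 CPM in control pigs. The NPPA model, which it shares with NPPB, averaged 386 ± 399 CPM in banded pigs and 35.8 ± 22.6 CPM in control pigs (edgeR adjusted p = 0.0603), with 975 CPM in banded 3, the animal with the highest sum. The call of PAM was kept without any 1 library, and that of KCNJ5 was kept without banded 1 alone and lost without any other (edgeR adjusted p 0.0709 to 0.0999) and with no filter (0.0806). The part of these markers in the light chain values was not tested.

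MYL9 is the regulatory light chain of smooth muscle and non-muscle cells. It had 756, 568, 836 and 802 CPM in banded pigs, against 409, 198, 252 and 513 CPM in control pigs. All banded libraries lay above all controls, with banded 2 close to control 4. The means were 740 ± 120 CPM in banded pigs and 343 ± 144 CPM in control pigs (SD, n = 4 each), a 2.16-fold higher level by the fit. The log2 fold change was 1.11 ± 0.28, with an edgeR adjusted p of 0.0378. In these bulk libraries more cells of a type and more RNA per cell cannot be told apart. The call was lost in edgeR's test without banded 1 (adjusted p = 0.0655), banded 3 (0.0697), banded 4 (0.0687), control 1 (0.0736), control 2 (0.0815) or control 3 (0.112). It was kept without banded 2 (0.0474) and without control 4 (0.0172).

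The 11 smooth muscle markers, none of them at 0, gave no call in edgeR's test, although 5 had an unadjusted p under 0.05, DESeq2 called 3 and limma-voom called 2. Their median log2 fold change was -0.42, and they summed to 1771 to 3302 CPM in banded pigs and 1649 to 2208 CPM in control pigs. TPM2, the most abundant of the list per length, averaged 1022 ± 247 CPM in banded pigs and 941 ± 265 CPM in control pigs. The sum of 3302 CPM was that of banded 3, where CNN1 had 1348 CPM. The sum therefore does not stand for the list as a set. MYH11, the smooth muscle heavy chain, averaged 76.1 ± 29.5 CPM in banded pigs and 142 ± 52.8 CPM in control pigs (edgeR adjusted p = 0.174). ACTA2, the smooth muscle alpha-actin, averaged 99.6 ± 28.8 CPM in banded pigs and 135 ± 24.0 CPM in control pigs. CNN1, or calponin, averaged 532 ± 550 CPM in banded pigs and 84.2 ± 23.3 CPM in control pigs, without overlap but short of a call (edgeR adjusted p = 0.0639). The 8 pericyte markers summed to 484 to 562 CPM in banded pigs and 573 to 710 CPM in control pigs, without overlap. None was called in edgeR (4 at an unadjusted p under 0.05, 2 in DESeq2, 0 in limma-voom). RGS5 was the largest part of the sum, at 216 to 255 CPM in banded pigs and 283 to 355 CPM in control pigs. MCAM and KCNJ8 lay the other way, with log2 fold changes of 0.47 and 0.20, where the median of the list was -0.32.

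MYLK3, the kinase that phosphorylates MYL2, had 29.6, 26.4, 23.9 and 60.4 CPM in banded pigs, against 61.7, 56.3, 70.6 and 65.5 CPM in control pigs. Banded 1 to 3 lay far below the controls, and banded 4 lay among them. The means were 35.1 ± 17.1 CPM in banded pigs and 63.5 ± 6.02 CPM in control pigs (SD, n = 4 each), and the log2 fold change was -0.86 ± 0.27 with an edgeR adjusted p of 0.0865. The edgeR test did call it without banded 4 (-1.25 on the log2 scale, adjusted p = 0.00103) and with library size alone as scaling (adjusted p = 0.0424). It was also called by DESeq2 (adjusted p = 0.0174) and by limma-voom (0.0122). Banded 4 also stood apart in red blood cell markers, which summed to 1789 CPM there, against 129 to 174 CPM in the other banded animals and 74.8 to 322 CPM in control pigs. The part of blood in the values of banded 4 was not tested.

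MYBPC3 had 2661, 2289.95, 2049 and 2257 CPM in banded pigs, against 2955, 3062, 2727 and 2876 CPM in control pigs. The highest banded library lay just below the lowest control. The means were 2314 ± 255 CPM in banded pigs and 2905 ± 141 CPM in control pigs (SD, n = 4 each). By the fit the log2 fold change was -0.33 ± 0.14, with an edgeR adjusted p of 0.188, and no alternative analysis called it.

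**Figure D2:**
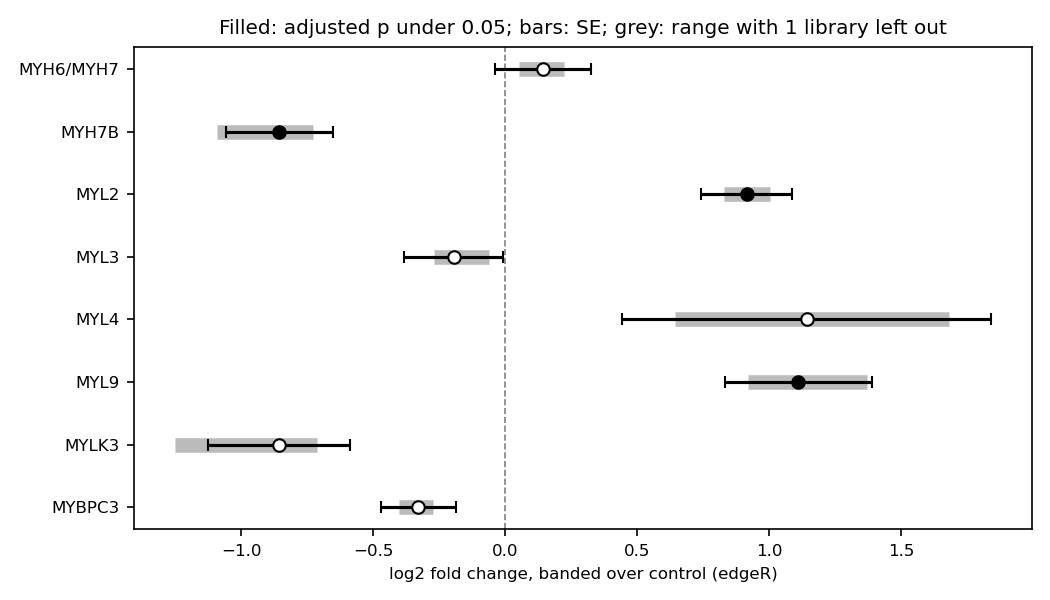
Log2 fold change of banded over control for each member model, with bars for ± 1 SE from the edgeR fit and filled points for an adjusted p under 0.05. MYL2 at 0.91 and MYL9 at 1.11 lie above 0 and MYH7B at -0.86 below it, while MYL4 at 1.14 has an SE of 0.70.

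Levels were compared between genes per kilobase of model length. MYL2 was the most abundant member, at 23537 ± 3427 CPM per kilobase in banded pigs and 12485 ± 1824 in control pigs (SD, n = 4 each). MYL3 came next, at 2035 ± 396 CPM per kilobase in banded pigs and 2329 ± 360 in control pigs. The MYH6/MYH7 model followed at 985 ± 143 CPM per kilobase in banded pigs and 892 ± 163 in control pigs. The lengths of the MYL3, MYH6/MYH7 and MYH7B models include bases of other genes, so their levels per length are those of the model.

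The order below the heavy chains was not the same in each group. In banded pigs MYL9 stood at 563 ± 91.1 CPM per kilobase and MYBPC3 at 468 ± 51.4, and the ranges of these SDs overlapped. In control pigs MYBPC3 stood at 587 ± 28.5 CPM per kilobase and MYL9 at 261 ± 110, and these SDs did not overlap. MYL4, MYH7B and MYLK3 formed the low end. They stood at 17.2 ± 11.5, 10.1 ± 3.19 and 7.09 ± 3.45 CPM per kilobase in banded pigs, within their SDs of one another. In control pigs MYH7B stood at 18.3 ± 2.33 CPM per kilobase, above MYLK3 at 12.8 ± 1.22, and MYL4 at 7.80 ± 5.87 lay within its SD of MYLK3.

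Ratios within a library do not depend on its scaling, and 6 of them were tested by an exact two-sided permutation test over the 70 ways to divide the 8 libraries, on log2 counts per kilobase. The smallest p this allows is 0.0286, so that at least 4 of the 6 ratios would have to reach it for any to pass after Benjamini-Hochberg adjustment over the 6. None passed 0.05 after that adjustment, and 3 had an unadjusted p under 0.05. The sixth ratio, of MYL7 to MYL2, enters this adjustment and is not reported here. Leaving it out, a choice made after the values were seen, would put the same 3 at 0.0476, so whether they pass depends on that choice, and the adjustment over the 6 is the one kept. MYL2 per heavy chain was 20.8, 19.4, 29.0 and 27.7 in banded pigs, against 12.6, 11.6, 13.9 and 19.4 in control pigs. Here and below, heavy chain means the whole MYH6/MYH7 model, whose length includes bases of other genes. The level of such a ratio depends on that length, and the difference between the groups does not. Banded 2 and control 4 almost met, and the other libraries lay apart. The difference was 0.76 ± 0.22 on the log2 scale (exact permutation p = 0.0286, adjusted p = 0.0571), or 1.70-fold.

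MYBPC3 per heavy chain was 0.459, 0.466, 0.436 and 0.552 in banded pigs, against 0.581, 0.597, 0.741 and 0.767 in control pigs. All banded libraries lay below all controls, with a log2 difference of -0.48 ± 0.13 (exact permutation p = 0.0286, adjusted p = 0.0571). The kinase relative to its substrate, MYLK3 over MYL2, differed by -1.87 ± 0.36 on the log2 scale, a 3.66-fold lower ratio in banded pigs (exact permutation p = 0.0286, adjusted p = 0.0571). Its log2 values were -11.99, -11.82, -12.48 and -10.87 in banded pigs, against -10.02, -10.04, -9.50 and -10.12 in control pigs, so even banded 4 lay below every control.

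Another pair of ratios overlapped between the groups. MYL3 per heavy chain differed by -0.36 ± 0.27 (exact permutation p = 0.286, adjusted p = 0.343). MYL4 over MYL3, the atrial against the ventricular essential chain, differed by 1.44 ± 0.81 (exact permutation p = 0.143, adjusted p = 0.214).

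**Figure D3:**
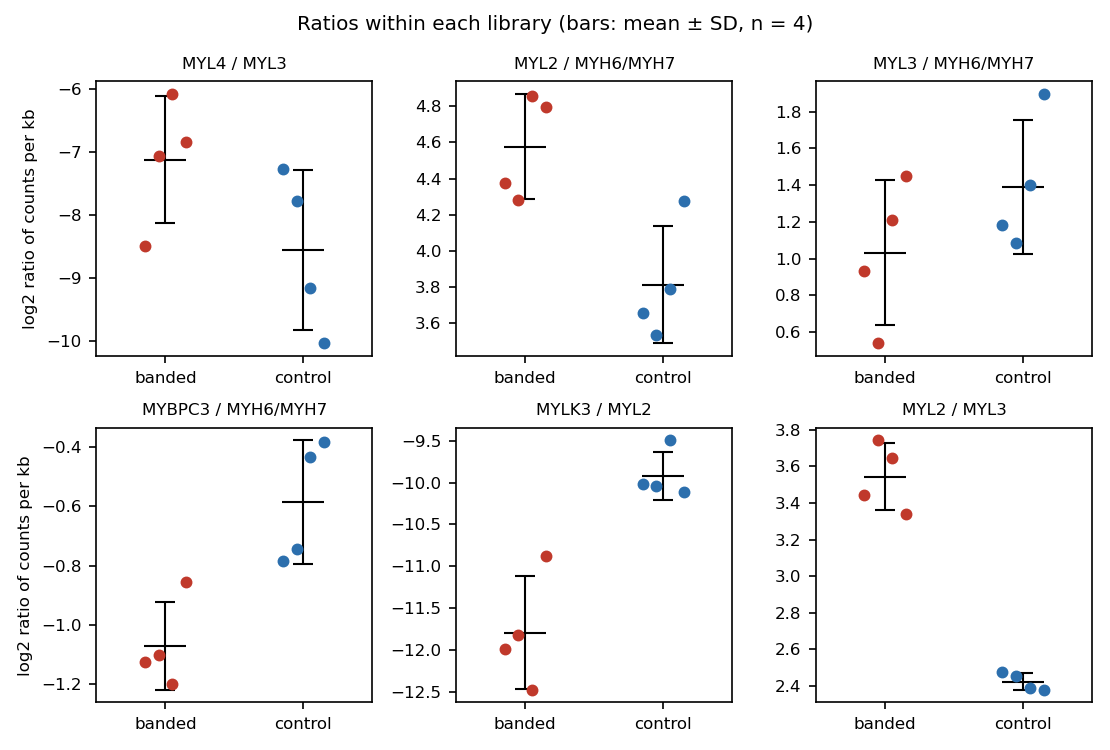
Log2 ratios of counts per kilobase within each library, with points for the 4 banded (left) and 4 control (right) libraries of each panel and bars for the mean ± SD. MYL2 over the heavy chain model lies higher in every banded library, and MYBPC3 over heavy chain and MYLK3 over MYL2 lie lower in every banded library; the MYL2 over MYL3 panel was added after the values were seen.

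Across the banded animals the members did not move as a block. Relative to the mean of the controls, MYL2 stood at 0.97, 0.63, 1.14 and 0.88 on the log2 scale in banded 1 to 4, and MYL9 at 1.14, 0.73, 1.29 and 1.23. In both genes banded 2 was the lowest and banded 3 the highest. MYH7B stood at -1.32, -1.05, -0.93 and -0.32 and MYLK3 at -1.10, -1.27, -1.41 and -0.071, with banded 4 nearest to the controls in both. MYL4 ranged from -0.33 in banded 1 to 2.06 in banded 3. Spearman correlations with banded 3 were 0.955 to 0.961 for the other banded libraries and 0.937 to 0.946 for the controls. Without banded 3 they were 0.969 to 0.977 between banded libraries and 0.956 to 0.966 between banded and control libraries. Among the 8 libraries, banded 3 also had the highest NPPA (975 CPM), CNN1 (1348 CPM), MYH10 (299 CPM) and MYL12A (734 CPM). The causes were not tested.

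**Figure D4:**
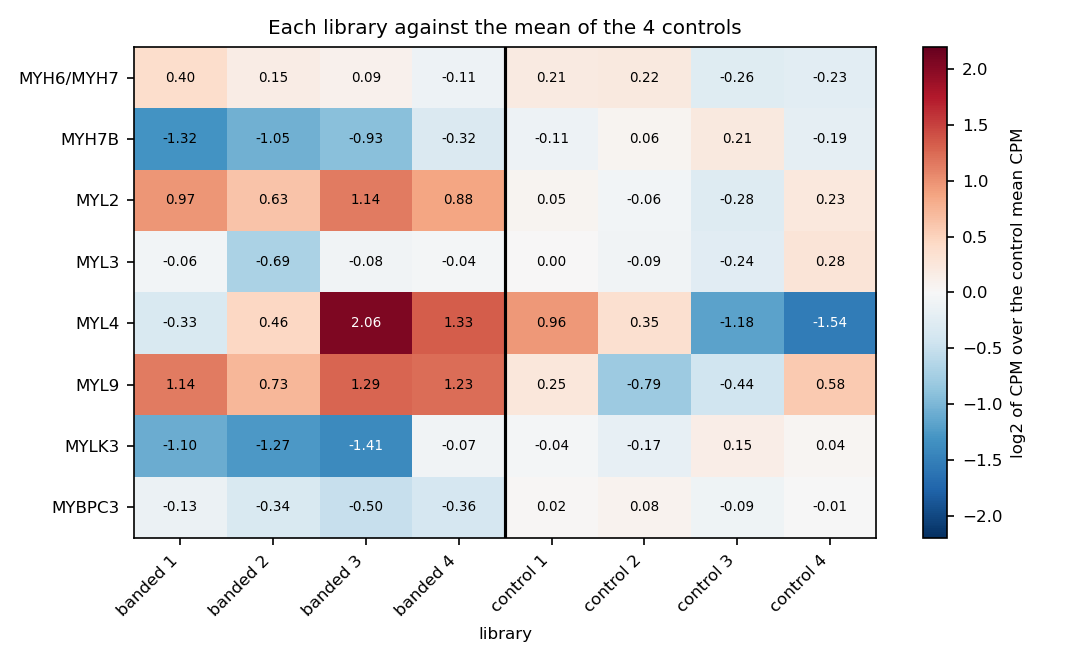
Log2 of each library's CPM over the mean CPM of the 4 controls, with 1 row per member model and 1 column per library, banded libraries on the left and control libraries on the right, red for higher and blue for lower. MYL2 and MYL9 are red in all 4 banded columns and MYH7B is blue in all 4, while MYLK3 in banded 4 is at -0.071.

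The genes whose profiles lay closest to a member were found by the root mean square difference of centred log2 CPM over the 8 libraries, among 11320 named genes of at least 1 CPM. MYOZ2, which encodes the Z-disc protein calsarcin-1, lay closest to MYL2 (0.0891), then MGST3 (0.0962) and SSR3 (0.102). MYOZ2 averaged 3892 ± 702 CPM in banded pigs and 2139 ± 250 CPM in control pigs. PALS2 (0.180), KIAA0040 (0.184) and RFX2 (0.186) lay closest to MYH7B. RAB9B (0.213), ATOX1 (0.214) and NCAPG (0.249) lay closest to MYL9, and DDB1 (0.0981), IDS (0.101) and RPUSD4 (0.110) to the MYH6/MYH7 model.

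Among 6 tested genes of the other myosin heavy chains, of 12 listed, edgeR called 0 (2 at an unadjusted p under 0.05, 1 in DESeq2, 0 in limma-voom), and the median log2 fold change was 0.42. Per length the most abundant was MYH9, a non-muscle chain, in banded pigs, at 12.4 CPM per kilobase. MYH14 followed at 10.6, MYH10 at 10.5 and MYH11 at 9.04. In control pigs the most abundant was MYH11, at 16.8 CPM per kilobase, with MYH9 at 11.7. The MYH9 model has 2065 bases, against 6890 in MYH14, 16498 in MYH10 and 8422 in MYH11. Whether it covers the whole gene was not tested, so this order is that of the models. MYH10, a non-muscle heavy chain, averaged 174 ± 84.6 CPM in banded pigs and 108 ± 14.3 CPM in control pigs (edgeR adjusted p = 0.166). The groups came very close without overlap, with 121.3 CPM in the lowest banded library and 121.1 CPM in the highest control. Banded 3 stood at 299 CPM. Among 3 tested genes of the other light chains, of 9 listed, MYL12A was called (33.3%, against 6.97% of all genes tested). MYL12A, a non-muscle regulatory chain, averaged 533 ± 146 CPM in banded pigs and 321 ± 45.2 CPM in control pigs (log2 fold change 0.73 ± 0.20, edgeR adjusted p = 0.0478). The call was kept without 2 of the 8 libraries and lost without banded 3 (0.0789), banded 4 (0.0748), control 1 (0.131), control 2 (0.146), control 3 (0.117) or control 4 (0.0530), and with no robust estimation (0.0531). MYL6, the common essential chain of smooth muscle and non-muscle cells, was the most abundant per length, at 82.5 CPM per kilobase in banded pigs and 86.2 in control pigs, or 353 ± 31.9 CPM in banded pigs and 369 ± 59.7 CPM in control pigs.

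Of 17 tested genes of light chain phosphorylation, 1 was called higher and 1 lower, and the median log2 fold change was -0.0050. These calls were 11.8% of those tested, against 6.97% of all genes tested. PPP1R14B, an inhibitor of protein phosphatase 1, averaged 45.6 ± 10.8 CPM in banded pigs and 22.5 ± 5.08 CPM in control pigs (log2 fold change 1.02 ± 0.20, edgeR adjusted p = 0.0139). PPP1R12B, a targeting subunit of myosin phosphatase in striated muscle, averaged 215 ± 35.8 CPM in banded pigs and 368 ± 54.8 CPM in control pigs (log2 fold change -0.77 ± 0.17, edgeR adjusted p = 0.0207). The call of PPP1R14B was kept without any 1 library, and that of PPP1R12B was lost without control 1 (0.0647), control 2 (0.0737) or control 3 (0.0696). MYLK, the smooth muscle kinase, averaged 35.2 ± 10.9 CPM in banded pigs and 52.9 ± 6.60 CPM in control pigs (edgeR adjusted p = 0.103). CALM3, a calmodulin gene and the most abundant of the list per length, averaged 196 ± 38.3 CPM in banded pigs and 192 ± 18.1 CPM in control pigs.

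Of 18 tested thick filament partners and assembly factors, 2 were called, both lower, and the median log2 fold change was -0.080. The 2 calls of 18 are to be set against 6.97% of all genes tested, or 3.5% for lower calls alone. MYOM3, an M-band protein that links thick filaments, averaged 159 ± 14.2 CPM in banded pigs and 261 ± 19.1 CPM in control pigs (log2 fold change -0.71 ± 0.13, edgeR adjusted p = 0.00824), and its call was kept without any 1 library. CAMK2D, the main cardiac calcium/calmodulin-dependent kinase II gene, averaged 328 ± 28.04 CPM in banded pigs and 465 ± 41.8 CPM in control pigs (log2 fold change -0.50 ± 0.13, edgeR adjusted p = 0.0455). Its call was lost without any 1 of the 8 libraries (edgeR adjusted p 0.0579 to 0.143) and with no filter (0.0664). HSP90AA1, a chaperone used in myosin folding and the most abundant of the list per length, averaged 856 ± 367 CPM in banded pigs and 733 ± 58.6 CPM in control pigs.

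Of 29 tested regulators of cardiac myosin genes, 6 were called, all lower in banded pigs. This is 20.7% of the list, against 6.97% of all genes tested. The groups did not overlap for 10 of the 29, against 15.9% of all genes tested, and the median log2 fold change was -0.36. The list was chosen with earlier results of these data known, so neither share is a test of the regulators as a set. THRA and THRB are the nuclear receptors of thyroid hormone, which in rodents raises MYH6 and lowers MYH7. THRA averaged 82.1 ± 20.4 CPM in banded pigs and 140 ± 20.0 CPM in control pigs (log2 fold change -0.77 ± 0.18, edgeR adjusted p = 0.0295). THRB averaged 29.4 ± 2.12 CPM in banded pigs and 40.8 ± 1.85 CPM in control pigs (log2 fold change -0.47 ± 0.11, edgeR adjusted p = 0.0286).

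Among the transcription factors, MEF2A, an activator of muscle genes, averaged 50.8 ± 10.5 CPM in banded pigs and 77.4 ± 6.59 CPM in control pigs (edgeR adjusted p = 0.0392). SOX6, which in mouse restrains slow muscle genes in fast fibres, averaged 6.75 ± 0.918 CPM in banded pigs and 12.5 ± 1.88 CPM in control pigs (edgeR adjusted p = 0.0128). HEY2, which in mouse represses atrial genes in the ventricle, averaged 18.7 ± 8.39 CPM in banded pigs and 43.7 ± 6.87 CPM in control pigs (edgeR adjusted p = 0.0371). NR2F1, an atrial transcription factor, averaged 2.51 ± 0.665 CPM in banded pigs and 5.83 ± 1.14 CPM in control pigs (edgeR adjusted p = 0.0175). HAND2, the most abundant of the list per length, averaged 69.2 ± 35.1 CPM in banded pigs and 53.5 ± 6.47 CPM in control pigs.

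Each of these 6 calls was lost in edgeR's test when certain single libraries were left out. MEF2A was lost without banded 1 (0.0752), banded 3 (0.0514), banded 4 (0.0610), control 1 (0.113), control 2 (0.117) or control 3 (0.0956), and also with upper-quartile scaling (0.0511) or library size alone (0.0580). THRA was lost without banded 1 (0.0617), banded 2 (0.0618), control 1 (0.0871), control 2 (0.0930) or control 4 (0.0576). THRB was lost without banded 2 (0.0616), control 1 (0.0914), control 2 (0.0867), control 3 (0.0690) or control 4 (0.0501), and SOX6 without control 1 (0.0519). HEY2 was lost without banded 1 (0.0594), banded 2 (0.0921), control 1 (0.0923), control 2 (0.104), control 3 (0.0629) or control 4 (0.0741), and also with no filter (0.0715). NR2F1 was lost without control 1 (0.0602) or control 2 (0.0644).

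**Figure D5:**
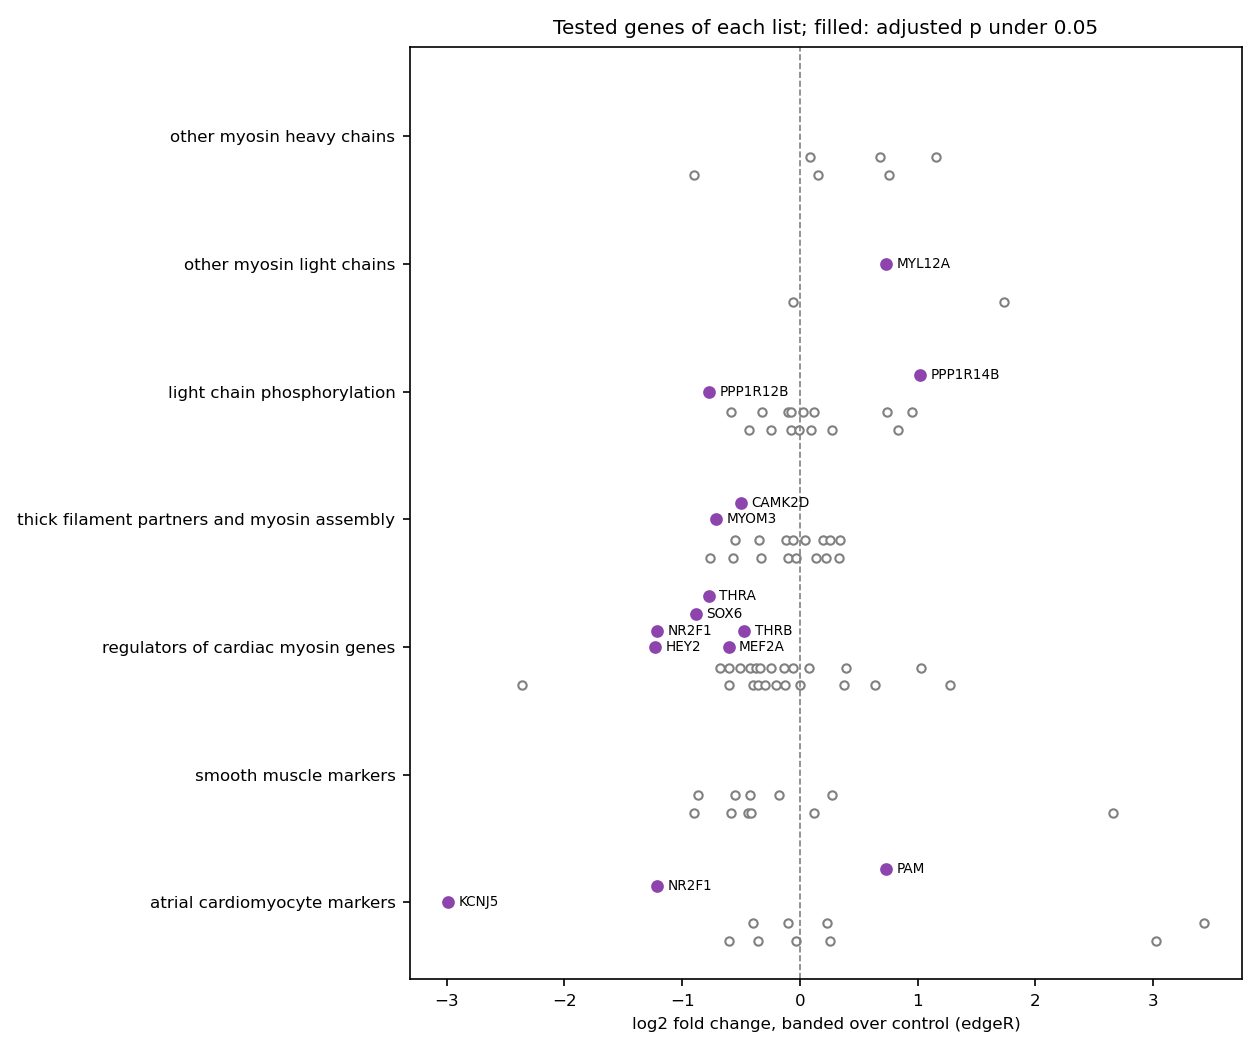
Log2 fold change of banded over control for each tested gene of 5 myosin-related lists and of 2 marker lists, with 1 row per list, filled and named points for an edgeR adjusted p under 0.05 and open points for the rest. The 6 named points among the regulators of cardiac myosin genes all lie left of 0, between -1.23 and -0.47.

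Other cell types were followed by their markers. Of 6 tested fast skeletal muscle markers 1 was called higher (CASQ1) and 1 lower (ACTN3), and the list summed to 65.0 to 288 CPM in banded pigs and 23.2 to 66.0 CPM in control pigs. The call of ACTN3 rests on few counts, at 0.117 ± 0.0823 CPM in banded pigs and 0.744 ± 0.169 CPM in control pigs. The sum of 288 CPM was that of banded 2, where MYL1 had 236 CPM. Of 11 ventricular markers 1 was called higher (MYOZ2). Of 8 fibroblast markers 1 was called lower (PDGFRA), and of 8 endothelial markers 1 was called lower (EMCN). Against 6.97% of all genes tested, the calls were 33.3% of the fast skeletal and 9.09% of the ventricular markers tested. They were 12.5% of the fibroblast and 12.5% of the endothelial markers. None of 7 macrophage markers was called in edgeR (5 at an unadjusted p under 0.05, 4 in DESeq2, 4 in limma-voom), and none of 4 red blood cell markers (0 at an unadjusted p under 0.05, 0 in DESeq2, 0 in limma-voom). These calls also moved with single libraries or with other settings in edgeR's test. MYOZ2 was lost without control 1 (0.0527), control 2 (0.0594) or control 3 (0.0583), CASQ1 without control 1 (0.0602) or control 2 (0.0642) or with no filter (0.0525), and EMCN without banded 1 (0.0507), control 1 (0.0561), control 2 (0.0648) or control 3 (0.0747). ACTN3 was lost without banded 2 (0.0703), banded 4 (0.0524) or any control (0.0700 to 0.0822), and PDGFRA without banded 1 (0.0990), banded 4 (0.0869) or any control (0.0648 to 0.151). PDGFRA was also lost with upper-quartile scaling (0.0537), library size alone (0.0704), no filter (0.0524) and no robust estimation (0.0515). The part of these markers in the member values was not tested.

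The authors' deposited table gives its log2 fold changes as control over banded, so its signs are the reverse of those above. In the authors' deposited table MYL2 had -0.83 with an adjusted p of 7.82e-06, MYL9 -1.05 with 0.00274 and MYH7B 0.83 with 0.00377. The authors' deposited table also put MYLK3 under 0.05 (0.71, adjusted p = 0.0492), which edgeR's test of the counts did not. In the authors' deposited table MYBPC3 (0.142), MYL3 (0.515), the MYH6/MYH7 model (0.666) and MYL4 (0.686) had adjusted p-values above 0.05. With signs reversed, its log2 fold changes of all 8 members lay nearer to edgeR's fit without banded 3 than to the fit of all libraries. MYL4 had -0.65 there, against 0.64 without banded 3 and 1.14 with all libraries. MYLK3 had 0.71, against -0.71 and -0.86. Whether the authors' comparison left out banded 3 was not tested, so its calls and those above may rest on different libraries.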

How the data were processed

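Right ventricular RNA of 4 banded and 4 control pigs was counted by the authors. Per the file headers, the deposited counts are read pairs per gene model from featureCounts 1.6.2 (mapping quality 10, strand setting 2, Ensembl release 106, build Sscrofa11.1, 24 libraries in the command), not normalised. The submitters' processing notes also name Trimmomatic, HISAT2, Subread and DESeq2 without settings. A deposited comparison by the authors holds log2 fold changes of control over banded with standard errors, a mean normalised signal, a test score and p-values.

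From the counts, edgeR 4.0.16 in R 4.3.3 kept 13697 genes by filterByExpr (minimum count 10, minimum total 15), scaled by TMM and fitted its two-sided quasi-likelihood test with robust estimation, and p-values were adjusted by Benjamini-Hochberg over all of them. SE is the log2 fold change over the square root of F. Ratios were tested by exact permutation in scipy 1.17.1, adjusted over 6, of which the ratio of MYL7 to MYL2 is not reported here. The scripts were tested on simulated data. Depth was 31033679 to 34183338 counts per library. RefSeq positions on the same build gave the genes within each model.

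The members, the 5 pathway lists and the 9 marker lists were chosen with earlier results of these data known. List genes were named if called, with up to 8 per list, or if most abundant per length, and the 3 closest profiles were named for MYL2, the MYH6/MYH7 model and each called member. Alternatives were DESeq2 1.42.0, limma-voom (limma 3.58.1), scaling by library size alone, by the upper quartile or by median of ratios, a stricter filter or no filter, no robust estimation, the genes of the mitochondrial genome removed, and each library left out in turn.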

Additional observations from a re-analysis of the deposited data

Results flagged for a closer look

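In 3 of 26 groups of 4 values, 1 library lay far from the others for the group's range (Dixon's criterion, which chance meets in about 1 in 20 groups). Banded 2 was low in MYL3, at 3776 CPM, where the other banded animals had 5759 to 5918 CPM. Banded 4 was high in MYLK3, at 60.4 CPM, where the others had 23.9 to 29.6 CPM. Control 3 was high in the log2 ratio of MYLK3 to MYL2, at -9.50 against -10.12 to -10.02 in the other controls. The causes were not tested.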

How the results depend on the processing

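The direction of every member was the same under all alternatives run. MYL2 passed in every alternative. The count of 954 genes became 1629 in DESeq2 and 399 to 962 with 1 library left out, and the count of 3 member models became 1 to 3. MYH7B, with a log2 fold change of -1.09 to -0.73, and MYL9, with 0.92 to 1.37, each lost their call without 6 of the 8 libraries. Scaling by library size alone moved the median of all genes by -0.10 and called 303 higher and 508 lower (37.4% higher, against 49.8%), and it kept the member calls and added MYLK3, as did DESeq2 and limma-voom. With fewer samples the test has less power; other causes were not tested. Adjusted without the ratio of MYL7 to MYL2, over the 5 reported in place of 6, a choice made after seeing the data, the log2 differences of 0.76 (MYL2 over heavy chain), -0.48 (MYBPC3 over heavy chain) and -1.87 (MYLK3 over MYL2) passed at 0.0476, because fewer ratios enter the adjustment. The 5 ratios kept their direction, and with 1 library left out the exact test cannot reach 0.05. No paired analysis was possible, because each library came from a separate animal and the labels give no pairing. The replicate numbers used here follow the order of the libraries within each group. With 4 animals a group, large differences in low or variable members such as MYL4 were not resolved.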
